A study of Mus musculus with 6 samples.

Results

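The 10 genes described here regulate or mark haematopoietic stem and progenitor cells: the transcription factor genes Hlf, Mecom, Prdm16, Gata2, Sox4 and Myb, the transcriptional cofactor genes Lmo2 and Mllt3, the RNA-binding protein gene Msi2 and the surface protein gene Cd34. Each was taken at the probe set that carries its symbol alone, and at the brighter one where there were several, which gave 10 of 10 members among 19938 genes measured. Expression was measured by microarray in bone marrow cells of 6 mice, 1 Affymetrix mouse gene array per mouse. The 3 HoxA9AA/Meis1 mice and the 3 HoxA9wt/Meis1 mice were lethally irradiated CD45.1+ recipients of CD45.2+ donor cells of the LSK fraction, which holds stem and early progenitor cells. The donor cells of both groups had been transduced with Meis1, and in addition with HoxA9AA-GFP in the first group and with HoxA9wt-GFP in the second. The labels do not say which residues HoxA9AA alters, give no age, strain or sex, and name no sort before RNA extraction, so recipient cells may be included. Marrow was taken at disease onset, so that both groups were diseased and neither is a normal marrow.

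Haematopoietic stem cells keep up their number through a small set of transcription factors and cofactors, most of which are turned down as cells differentiate into granulocytes, monocytes and red cells. HOXA9 and MEIS1 are homeodomain proteins of the same early cells, and together they transform mouse marrow progenitors into an acute myeloid leukaemia. Several of the genes described here, among them Myb, Mecom, Msi2 and Mllt3, are known from human or mouse myeloid leukaemia, either as genes the leukaemia needs or as genes that are rearranged.

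Expression is given as log2 values, so that 1 unit is a doubling. Differences are HoxA9AA/Meis1 minus HoxA9wt/Meis1, values after ± are SDs of 3 mice unless SE is given, and p-values come from limma and were adjusted over all 19938 genes with the Benjamini-Hochberg method. The number of arrays limits the precision. As a measure of background, the 95th percentile of 1015 olfactory receptor genes lay between 6.52 and 6.72 on the 6 arrays. The leukocyte and myeloid genes Ptprc, Spi1, Cebpa, Itgam, Coro1a and Laptm5, taken as defining markers of marrow, were above it on all 6 arrays. HoxA9AA/Meis1 replicates 1 and 3 were less like the HoxA9wt/Meis1 arrays than replicate 2 was: they correlated with those arrays at 0.958 to 0.966 and at 0.968 to 0.970 across genes. HoxA9AA/Meis1 replicate 2 correlated with the HoxA9wt/Meis1 arrays at 0.989 to 0.991, and the HoxA9wt/Meis1 arrays with each other at 0.987 to 0.990. These values do not show how alike HoxA9AA/Meis1 replicates 1 and 3 are to each other. In RNA pooled over marrow cells, fewer cells of a type and less RNA per cell cannot be told apart.

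All 10 members had a higher mean in HoxA9AA/Meis1 marrow than in HoxA9wt/Meis1 marrow, and none passed the test. The differences lay between 0.10 for Lmo2 and 1.08 for Cd34, with a median of 0.41, against a median of 0.01 over all genes, of which 52.8% had a higher mean. With limma, 0 of 10 members and 0% of all genes had an adjusted p under 0.05. At an unadjusted p under 0.05 the count of members was 1, Myb, and 4.15% of all genes were past that threshold in this direction. In 0 of 10 members did the groups keep apart, while they did so in 11.4% of all genes. In 6 of the 10, Hlf, Gata2, Sox4, Mllt3, Cd34 and Myb, HoxA9AA/Meis1 replicates 1 and 3 were the highest of the 6 arrays, an order that 14.4% of all genes had and that Mecom, Prdm16, Msi2 and Lmo2 did not. This order was noticed in the values and is a description. The SD was larger among the HoxA9AA/Meis1 mice in 8 of 10 members, with a median of 0.46 against 0.11 in the HoxA9wt/Meis1 mice, and in 70.8% of all genes.

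**Figure D1:**
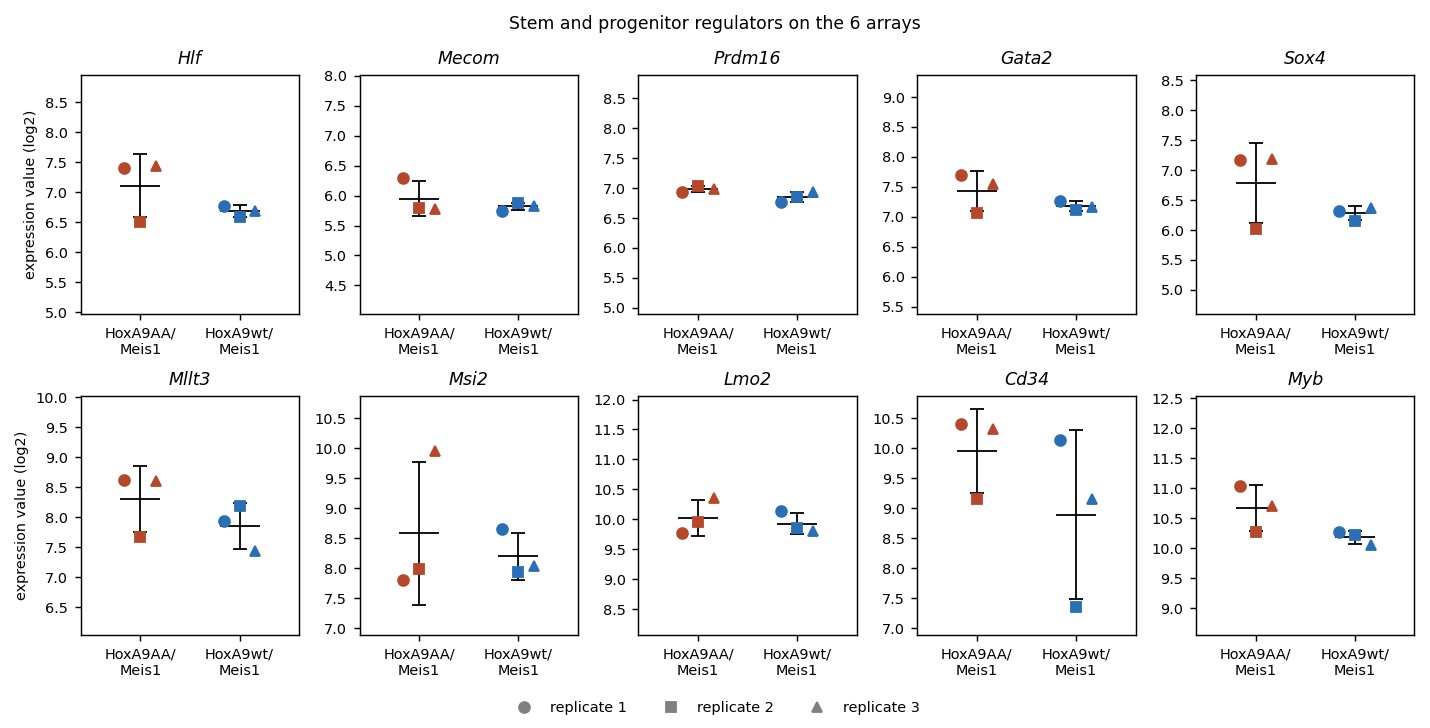
Expression values (log2, vertical axis) of the 10 members on each of the 6 arrays, HoxA9AA/Meis1 left and HoxA9wt/Meis1 right; symbols are single mice, horizontal lines group means and error bars SDs (n = 3), and every panel spans the same height. HoxA9AA/Meis1 replicates 1 and 3 lie above the other 4 mice in Hlf, Gata2, Sox4, Mllt3, Cd34 and Myb, while Prdm16 stays within 0.27 over all 6 mice.

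Hlf encodes a bZIP transcription factor of the PAR family that marks and helps to maintain stem cells. It measured 7.41, 6.50 and 7.43 in HoxA9AA/Meis1 replicates 1, 2 and 3, against 6.77, 6.58 and 6.68 in the HoxA9wt/Meis1 mice. HoxA9AA/Meis1 replicates 1 and 3 were high and nearly equal, and replicate 2 lay below all HoxA9wt/Meis1 mice. The difference was 0.44 ± 0.26 (SE; limma, adjusted p = 0.789), with a 95% interval of -0.18 to 1.05. The gene was above the background measure on 4 of the 6 arrays.

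Sox4, an HMG box factor of lymphoid and early myeloid cells that can drive leukaemia in mice, had the same arrangement of mice. It measured 7.17, 6.01 and 7.18 in HoxA9AA/Meis1 marrow, against 6.32, 6.15 and 6.37 in HoxA9wt/Meis1 marrow. The probe set was above the background measure on 2 arrays, those of HoxA9AA/Meis1 replicates 1 and 3. Its difference was 0.51 ± 0.32 (SE; limma, adjusted p = 0.803), with an interval of -0.26 to 1.27.

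Mllt3, also known as Af9, encodes a reader of acylated histones in the super elongation complex and is a fusion partner of the histone methyltransferase gene Kmt2a in leukaemia. It measured 8.62, 7.67 and 8.61 in the HoxA9AA/Meis1 mice, against 7.93, 8.19 and 7.44 in the HoxA9wt/Meis1 mice. Here too HoxA9AA/Meis1 replicates 1 and 3 were nearly equal, but the HoxA9wt/Meis1 mice spread more widely than for Hlf and Sox4, with an SD of 0.38 against 0.10 and 0.12, and HoxA9AA/Meis1 replicate 2 lay among them. The difference was 0.45 ± 0.31 (SE; limma, adjusted p = 0.824; interval -0.30 to 1.19).

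The promoters of these 3 genes are shown because their values ran side by side over the HoxA9AA/Meis1 mice, apart by at most 0.02 between replicates 1 and 3 in each gene. Each window, from RefSeq on build GRCm38.p6, runs from 250 bases before the start of the gene to 50 bases after it, 5′ to 3′ on the gene's strand. It lies at chr11:90390868-90391167 for Hlf, at chr13:28953650-28953949 for Sox4 and at chr4:88033358-88033657 for Mllt3, all on the minus strand. Capitals mark matches, on either strand, to the box CCAAT, to a HOX core (TTTAT) or to a cyclic AMP response element (TGACGTCA).
Hlf: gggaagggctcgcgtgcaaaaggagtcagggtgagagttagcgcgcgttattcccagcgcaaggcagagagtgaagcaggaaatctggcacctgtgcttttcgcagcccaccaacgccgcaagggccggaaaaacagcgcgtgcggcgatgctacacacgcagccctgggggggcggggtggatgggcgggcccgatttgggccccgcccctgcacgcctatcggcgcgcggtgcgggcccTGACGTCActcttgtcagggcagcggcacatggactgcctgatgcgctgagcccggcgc
Sox4: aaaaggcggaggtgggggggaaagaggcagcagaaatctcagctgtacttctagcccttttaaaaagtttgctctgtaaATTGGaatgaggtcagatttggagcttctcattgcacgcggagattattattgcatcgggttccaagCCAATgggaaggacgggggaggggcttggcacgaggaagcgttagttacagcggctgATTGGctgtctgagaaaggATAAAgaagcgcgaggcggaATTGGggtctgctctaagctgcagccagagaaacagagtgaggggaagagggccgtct
Mllt3: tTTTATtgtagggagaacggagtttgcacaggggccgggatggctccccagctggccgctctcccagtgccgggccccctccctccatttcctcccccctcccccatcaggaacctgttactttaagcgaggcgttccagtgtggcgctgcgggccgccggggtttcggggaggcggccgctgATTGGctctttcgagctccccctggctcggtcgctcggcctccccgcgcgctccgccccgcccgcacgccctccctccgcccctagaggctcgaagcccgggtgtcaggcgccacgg
Hlf holds the cyclic AMP response element, whose first base is 9 bases before the start, and no HOX core. Sox4 holds 4 CCAAT boxes and 1 HOX core, and Mllt3 holds 1 of each.

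No motif searched was common to the promoters of the 9 members that had one in the table, and a match is a description of the letters, not a site. The HOX core was found in 5 of the 9 (Cd34, Gata2, Mecom, Mllt3 and Sox4) and in 40.9% of 27025 promoters, 1 per gene at its outermost start. The CCAAT box was in 4 members (Mllt3, Msi2, Prdm16 and Sox4) and in 38.0% of all promoters. The cyclic AMP response element was in Hlf and Msi2 and in 1.85% of all promoters, and the E-box CACGTG in Msi2 and in 7.24%. A HOX-PBX motif (TGATTTAT), a MEIS motif (TGACAG) and a GATA motif (AGATAA) had 0 matches in the members, against 1.04%, 19.3% and 11.4% of all promoters. The HOX core TTTAT is part of the HOX-PBX motif, so a match to the longer is also a match to the shorter. The members' windows held between 50% (Cd34) and 76.3% (Msi2) G and C, with a median of 52.7% over all promoters.

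Gata2 and Myb had HoxA9AA/Meis1 replicates 1 and 3 highest as well. Gata2, a zinc finger factor that stem cells require and that mast cell and megakaryocyte precursors also use, measured 7.69, 7.06 and 7.55 in HoxA9AA/Meis1 marrow, against 7.26, 7.11 and 7.16 in HoxA9wt/Meis1 marrow. Its difference was 0.26 ± 0.17 (SE; limma, adjusted p = 0.816; interval -0.15 to 0.67), and HoxA9AA/Meis1 replicate 2 was the lowest of the 6 mice. Myb, a factor that definitive haematopoiesis and several myeloid leukaemias depend on, measured 11.03, 10.27 and 10.71 in the HoxA9AA/Meis1 mice, against 10.27, 10.22 and 10.06 in the HoxA9wt/Meis1 mice. HoxA9AA/Meis1 replicate 2 and HoxA9wt/Meis1 replicate 1 had the same value, so that the groups touched. The Myb difference of 0.49 ± 0.19 (SE) had the smallest p of the 10 members, 0.0435 before adjustment and 0.731 after it (limma), and its interval ran from 0.02 to 0.95. Myb was 1164th by p among all genes.

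Cd34, a sialomucin on the surface of progenitors and endothelium, had the largest difference of the 10 and the widest spread. It measured 10.40, 9.16 and 10.33 in HoxA9AA/Meis1 marrow, against 10.14, 7.36 and 9.16 in HoxA9wt/Meis1 marrow. The values of the groups interleaved: HoxA9wt/Meis1 replicate 1 was near the 2 high HoxA9AA/Meis1 mice, HoxA9wt/Meis1 replicate 3 equalled HoxA9AA/Meis1 replicate 2, and HoxA9wt/Meis1 replicate 2 stood alone at the bottom. The difference of 1.08 ± 0.72 (SE), or 2.11-fold, had an adjusted p of 0.816 (limma) and an interval of -0.64 to 2.80. Without HoxA9wt/Meis1 replicate 2 it was 0.31. In that same mouse the red cell genes Car1 and Rhag, a carbonic anhydrase and a part of the Rh complex, measured 10.27 and 7.56. Their part in the Cd34 value was not tested.

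Msi2 and Lmo2 had another order of mice, with HoxA9AA/Meis1 replicate 3 highest and HoxA9wt/Meis1 replicate 1 next. Msi2, an RNA-binding translational regulator that stem cells and myeloid leukaemias use, measured 7.81, 7.99 and 9.95 in HoxA9AA/Meis1 marrow, against 8.65, 7.93 and 8.03 in HoxA9wt/Meis1 marrow. HoxA9AA/Meis1 replicate 3 lay 1.75 above the HoxA9wt/Meis1 mean, and replicate 1 had the lowest value of all 6 mice. The difference was 0.38 ± 0.57 (SE; limma, adjusted p = 0.942; interval -0.99 to 1.75), and its sign turned to -0.30 without HoxA9AA/Meis1 replicate 3. Lmo2, a LIM-only protein that bridges the transcription factors TAL1 and GATA through LDB1, measured 9.77, 9.96 and 10.36 in the HoxA9AA/Meis1 mice, against 10.14, 9.86 and 9.80 in the HoxA9wt/Meis1 mice. Its difference of 0.10 ± 0.18 (SE; limma, adjusted p = 0.959; interval -0.33 to 0.52) was the smallest of the 10, and was -0.07 without HoxA9AA/Meis1 replicate 3. The mast cell gene Cpa3, a carboxypeptidase, was high in the same mice, at 11.08 in HoxA9AA/Meis1 replicate 3 and 10.47 in HoxA9wt/Meis1 replicate 1, against 7.83 and 6.45 in HoxA9AA/Meis1 replicates 1 and 2 and 5.69 and 7.35 in HoxA9wt/Meis1 replicates 2 and 3. Whether mast cells or their precursors bear on Msi2 and Lmo2 was not tested.

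Lmo2 lies on chromosome 2, in a stretch whose genes were lower in HoxA9AA/Meis1 replicate 1. Its 40 nearest genes of at least median brightness, 20 on each side, stood in that mouse at a median of -0.68 from the HoxA9wt/Meis1 mean, and 35 of the 40 were below that mean. In HoxA9AA/Meis1 replicates 2 and 3 the medians were -0.05 and 0.02. Lmo2 itself was -0.16 from the HoxA9wt/Meis1 mean in HoxA9AA/Meis1 replicate 1, a smaller distance than that of its neighbours, and without that array its difference was 0.23. The neighbours of the other 9 members had medians between -0.17 (Myb) and 0.19 (Prdm16) in HoxA9AA/Meis1 replicate 1. Gata2 neighbours had a median of 0.32 in HoxA9AA/Meis1 replicate 3, beside 0.37 for Gata2.

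Mecom and Prdm16, related genes for zinc finger proteins with a PR domain that stem cells need, varied least. Mecom, whose locus is rearranged in human myeloid leukaemia, measured 6.29, 5.79 and 5.78 in HoxA9AA/Meis1 marrow, against 5.75, 5.87 and 5.83 in HoxA9wt/Meis1 marrow. HoxA9AA/Meis1 replicate 1 was apart from the other 5 mice, and no array was above the background measure. The difference was 0.14 ± 0.15 (SE; limma, adjusted p = 0.910; interval -0.23 to 0.51), and -0.03 without that array. A further Mecom probe set measured 5.37, 5.05 and 5.0 in HoxA9AA/Meis1 marrow, against 4.95, 5.20 and 5.08 in HoxA9wt/Meis1 marrow, with the same mouse highest. Prdm16 measured 6.93, 7.03 and 6.98 in the HoxA9AA/Meis1 mice, against 6.76, 6.85 and 6.94 in the HoxA9wt/Meis1 mice. It was above the background measure on all 6 arrays, and the groups overlapped by 0.01. The difference was 0.13 ± 0.09 (SE; limma, adjusted p = 0.820), and the interval of -0.08 to 0.34 was the narrowest of the 10.

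The promoters of this pair are shown because they share a stretch of letters that no other pair of members approached. At chr3:30509710-30510009 for Mecom and chr4:154636824-154637123 for Prdm16 (RefSeq, GRCm38.p6, minus strand, the same window as above), a run of 24 bases is identical, and capitals mark it.
Mecom: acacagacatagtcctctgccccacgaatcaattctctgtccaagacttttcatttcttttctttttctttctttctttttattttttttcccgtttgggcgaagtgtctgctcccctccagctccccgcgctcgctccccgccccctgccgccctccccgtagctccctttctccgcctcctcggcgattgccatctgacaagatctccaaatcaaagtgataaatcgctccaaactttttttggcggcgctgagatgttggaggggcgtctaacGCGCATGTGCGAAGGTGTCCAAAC
Prdm16: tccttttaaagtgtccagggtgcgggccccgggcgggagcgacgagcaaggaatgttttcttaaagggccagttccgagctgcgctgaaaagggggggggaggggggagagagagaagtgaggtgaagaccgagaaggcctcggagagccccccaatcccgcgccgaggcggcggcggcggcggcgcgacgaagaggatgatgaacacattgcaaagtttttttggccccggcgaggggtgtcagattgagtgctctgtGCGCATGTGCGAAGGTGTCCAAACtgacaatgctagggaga
The run begins after 26 bases of the Mecom transcript and after 9 bases of the Prdm16 transcript, and of 27025 promoters 2 hold it. In Mecom the run ends at the last base of the window, so 24 is its length within the window only. Over the 36 pairs of member promoters the next longest shared run was 12 bases, between Hlf and Msi2.

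The plot of group differences sets each estimate beside its interval and beside the values without each array. For Hlf, Sox4, Gata2, Mllt3 and Myb the difference was largest without HoxA9AA/Meis1 replicate 2, at 0.74, 0.90, 0.44, 0.76 and 0.69. The lowest values of the same 5 with 1 array left out were 0.28, 0.31, 0.13, 0.24 and 0.31. Without HoxA9AA/Meis1 replicate 2 these 5 members had an unadjusted p under 0.05, as did 8.29% of all genes in this direction, and 0 of the 10 members passed (limma, smallest adjusted p = 0.0572, for Sox4, and 0.0702 for Hlf), with 0.241% of all genes called. In these genes replicate 2 was the lowest HoxA9AA/Meis1 mouse, so that leaving it out enlarges the difference by construction.

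**Figure D2:**
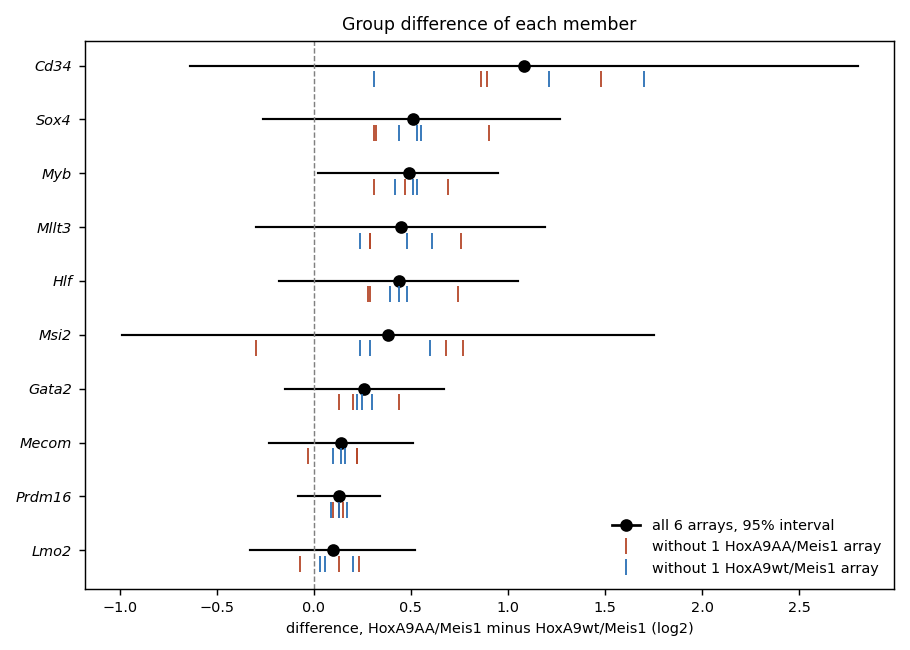
Group difference of each member (horizontal axis, HoxA9AA/Meis1 minus HoxA9wt/Meis1, log2), with genes down the vertical axis; points are limma estimates from all 6 arrays, lines their 95% intervals and ticks the difference after leaving out 1 array. The interval of Myb, 0.02 to 0.95, is the one that leaves out 0, and the ticks of Msi2, Lmo2 and Mecom cross 0.

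Markers of other marrow cells also differed between single mice, and their part in the members' values was not tested. The 9 measured monocyte and macrophage markers averaged 8.74, 10.17 and 9.16 in HoxA9AA/Meis1 replicates 1, 2 and 3, against 9.95 to 10.36 in the HoxA9wt/Meis1 mice. They were thus lower in the 2 mice in which Hlf, Sox4, Mllt3, Gata2 and Myb were higher, and 8 of the 9 had a lower mean in HoxA9AA/Meis1 marrow. Msr1 stood furthest from its HoxA9wt/Meis1 mean in those 2 mice, at -3.91 and -4.22. The other markers lay there between -2.17 (Ccr2, replicate 1) and -0.07 (Irf8, replicate 3). The 5 early neutrophil granule markers, which include Mpo and Elane, averaged 11.80 in HoxA9AA/Meis1 replicate 1, 10.29 and 10.30 in replicates 2 and 3, and 9.91 to 10.55 in the HoxA9wt/Meis1 mice. In HoxA9AA/Meis1 replicate 3, where those members were also high, the average of this list stood within the HoxA9wt/Meis1 range, but its genes went different ways. Mpo (10.97) and Elane (9.55) were there the lowest of the 6 arrays. Prss57 (9.06) and Ctsg (12.61) were above every HoxA9wt/Meis1 mouse, and Prtn3 (9.33) lay within their range. Late neutrophil markers averaged 10.24, 10.73 and 8.80 in HoxA9AA/Meis1 marrow, against 9.93, 10.55 and 7.79 in HoxA9wt/Meis1 marrow, where replicate 3 was lowest. Of these, 8 of 10 had a higher mean, and 2, Ltf and Mmp8, a lower one. Mmp8 differed by -3.54, with 8.07, 11.44 and 6.07 in HoxA9AA/Meis1 marrow, against 11.70, 12.49 and 12.00 in HoxA9wt/Meis1 marrow.

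The lineages in which some members are also used gave mixed values. Erythroid markers, relevant to Lmo2, Gata2 and Myb, averaged 6.46 to 6.53 in HoxA9AA/Meis1 marrow, against 6.55 to 7.92 in HoxA9wt/Meis1 marrow, where replicate 2 was highest. All 9 measured had a lower mean in HoxA9AA/Meis1, and Klf1, Epb42 and Gata1 were at background on every array. Megakaryocyte markers averaged 7.24 to 7.38 in HoxA9AA/Meis1 and 6.99 to 7.78 in HoxA9wt/Meis1 marrow, with 1 of 6 higher. The higher one, Itgb3, differed by 1.31, and the others by -0.68 (Pf4) to -0.01 (Itga2b). Itgb3 measured 9.33, 8.67 and 9.03 in HoxA9AA/Meis1 marrow, against 8.19, 7.55 and 7.35 in HoxA9wt/Meis1 marrow. Mast cell, basophil and eosinophil markers averaged 6.27 to 7.44 in HoxA9AA/Meis1 and 6.34 to 7.33 in HoxA9wt/Meis1 marrow, with 5 of 9 higher and Fcer1a, Epx and Tpsb2 at background. Endothelial markers, relevant to Cd34, Mecom and Prdm16, averaged 6.64 to 6.75 in HoxA9AA/Meis1 and 6.52 to 6.60 in HoxA9wt/Meis1 marrow. Of these, 7 of 10 had a higher mean, and Kdr, Tek and Emcn were at background. Pecam1 had the largest difference of this list, 1.19, and the others lay between -0.13 (Tek) and 0.22 (Plvap). Stromal markers averaged 7.23 to 7.66 in HoxA9AA/Meis1 and 7.05 to 7.17 in HoxA9wt/Meis1 marrow, with 7 of 9 higher. Lepr and Kitl were at background. Vcam1 and Pdgfrb differed by 1.28 and 1.09, and the other stromal markers by -0.04 (Kitl) to 0.22 (Lepr). B cell markers averaged 6.16 to 6.28 in HoxA9AA/Meis1 and 6.01 to 6.09 in HoxA9wt/Meis1 marrow, with 10 of 11 higher and 7 at background. Vpreb3 differed by 0.59, and the others by at most 0.34 (Cd79b). T and NK cell markers averaged 6.37 to 6.67 in HoxA9AA/Meis1 and 6.15 to 6.45 in HoxA9wt/Meis1 marrow. Of these, 6 of 10 had a higher mean and 4 were at background. Thy1 differed by 2.48, and the others by -0.33 (Cd2) to 0.16 (Cd3e). Thy1 measured 10.50, 7.21 and 10.72 in HoxA9AA/Meis1 marrow, against 7.22, 6.91 and 6.86 in HoxA9wt/Meis1 marrow.

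**Figure D3:**
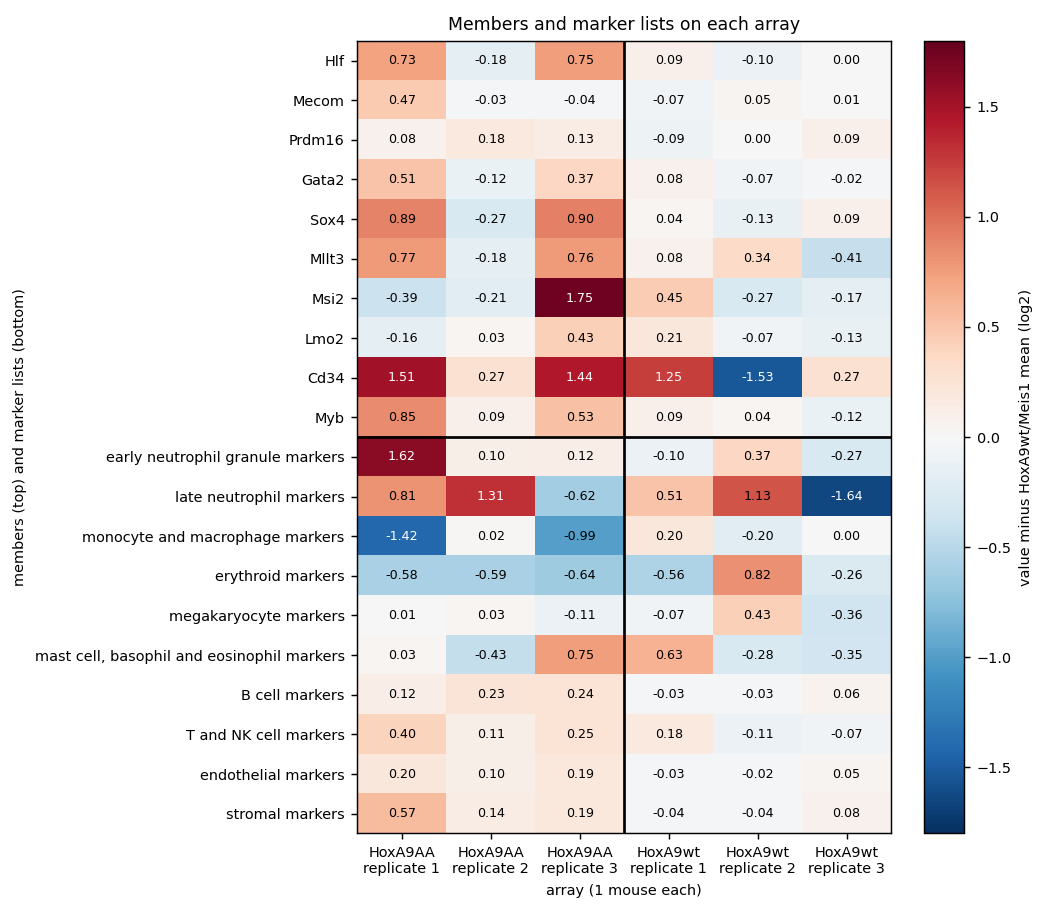
Value on each array minus the HoxA9wt/Meis1 mean (colour and printed number, log2), with arrays along the horizontal axis, the 10 members in the upper rows and the average of each marker list in the lower rows. Hlf, Sox4, Mllt3, Gata2 and Myb are between 0.37 and 0.90 in HoxA9AA/Meis1 replicates 1 and 3, where the monocyte and macrophage list is at -1.42 and -0.99.

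The genes of proteins that act together with the members leaned the same way as the members. All 20 partner genes listed, from the complexes of Lmo2 and Gata2, of Mllt3, of Myb and of Mecom and Prdm16, had a higher mean in HoxA9AA/Meis1 marrow, with a median difference of 0.28, and 0 of 20 passed (limma). An unadjusted p under 0.05 was reached by 7, all higher (4.15% of all genes in this direction), and the groups kept apart in 8 (11.4% of all genes). The count of 7 was 3 without HoxA9wt/Meis1 replicate 1, HoxA9wt/Meis1 replicate 3 or HoxA9AA/Meis1 replicate 3, and 12 without HoxA9AA/Meis1 replicate 2. Without 1 array the number with a higher mean was 19 or 20. HoxA9AA/Meis1 replicates 1 and 3 were the highest arrays in 14 of the 20, the order described above for 6 members and 14.4% of all genes. The 4 with the smallest p were Lyl1, Cbfa2t3, Kmt2a and Ehmt1, each with an adjusted p of 0.731 (limma). Lyl1, a bHLH factor of the Lmo2 complex, measured 9.74, 9.30 and 9.56 in HoxA9AA/Meis1 marrow, against 9.01 in each HoxA9wt/Meis1 mouse. Cbfa2t3, a corepressor of the same complex, measured 8.04, 7.47 and 7.77 in HoxA9AA/Meis1 marrow, against 7.24, 7.09 and 7.29 in HoxA9wt/Meis1 marrow. Unlike in Hlf or Sox4, HoxA9AA/Meis1 replicate 2 lay above every HoxA9wt/Meis1 mouse in both genes.

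Of the remaining partners named by the rule, Kmt2a, the histone methyltransferase whose fusions include Mllt3, measured 9.95, 9.55 and 9.57 in HoxA9AA/Meis1 marrow, against 9.15, 9.37 and 9.22 in HoxA9wt/Meis1 marrow. Ehmt1, a histone methyltransferase that binds PRDM16, measured 8.07, 7.93 and 8.14 in the HoxA9AA/Meis1 mice, against 7.74, 7.81 and 7.74 in the HoxA9wt/Meis1 mice. The groups kept apart in both. Within the Lmo2 complex the differences were unequal, at 0.56 for the bridging protein gene Ldb1 and 0.02 for the bHLH factor gene Tal1, which were named after their values were seen. The acetyltransferase genes Crebbp and Ep300, which work with Myb and were also named after their values were seen, differed by 0.08 and 0.03.

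Among paralogues of the members the differences went both ways, and how they compare with the members' was not tested. Of 15, 9 had a higher and 6 a lower mean in HoxA9AA/Meis1 marrow, with differences between -0.36 and 0.23 and a median of 0.04, 0 passed (limma) and 0 had an unadjusted p under 0.05. Gata3, Sox11, Gata1, Podxl and Sox12 were at background on all 6 arrays, and with dim genes left out 5 of 6 paralogues had a higher mean, with a median of 0.20. Without HoxA9AA/Meis1 replicate 3, 5 of the 15 were higher and 10 lower. Dbp, a PAR bZIP relative of Hlf that follows the circadian clock, measured 7.38, 7.25 and 7.39 in HoxA9AA/Meis1 marrow, against 7.01, 7.21 and 7.25 in HoxA9wt/Meis1 marrow. Nfil3, a bZIP repressor that binds the same sites as Hlf, measured 10.12, 10.47 and 9.80 in the HoxA9AA/Meis1 mice, against 10.22, 10.29 and 10.67 in the HoxA9wt/Meis1 mice. Mybl1 differed by -0.36 where Myb differed by 0.49, a contrast between probe sets that was not tested. Gata3 differed by 0.15.

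Of 27 further stem and progenitor genes, 17 had a higher and 10 a lower mean, with a median of 0.08, where 52.8% of all genes had a higher mean. None of the 27 passed (limma), and 4 had an unadjusted p under 0.05, all higher (4.15% of all genes). These were the transcription factor genes Erg, Runx1 and Etv6 and the receptor gene Kit. Kit measured 9.96, 8.43 and 10.49 in HoxA9AA/Meis1 marrow, against 8.63, 7.54 and 8.38 in HoxA9wt/Meis1 marrow, with HoxA9AA/Meis1 replicates 1 and 3 highest as in Hlf and Sox4. Erg measured 9.60, 8.74 and 9.43 in HoxA9AA/Meis1 marrow, against 8.42, 8.23 and 8.31 in HoxA9wt/Meis1 marrow, so that its groups kept apart. Without HoxA9AA/Meis1 replicate 2, its lowest HoxA9AA/Meis1 mouse, Erg was the 1 gene of the 27 called (limma), with 0.241% of all genes called. Angpt1, a Tek ligand named after its values were seen, stood at 8.96 in HoxA9AA/Meis1 replicate 3 and 8.75 in HoxA9wt/Meis1 replicate 1, the mice with the highest Msi2, and at 5.38 to 6.05 elsewhere. Differences of the 27 ran from -0.96 (Flt3) to 1.44 (Kit). Flt3, also named after its values were seen, measured 6.92, 10.13 and 10.85 in HoxA9AA/Meis1 marrow, against 10.21, 9.87 and 10.69 in HoxA9wt/Meis1 marrow. HoxA9AA/Meis1 replicate 1 was thus the lowest mouse for Flt3 and replicate 3 the highest.

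**Figure D4:**
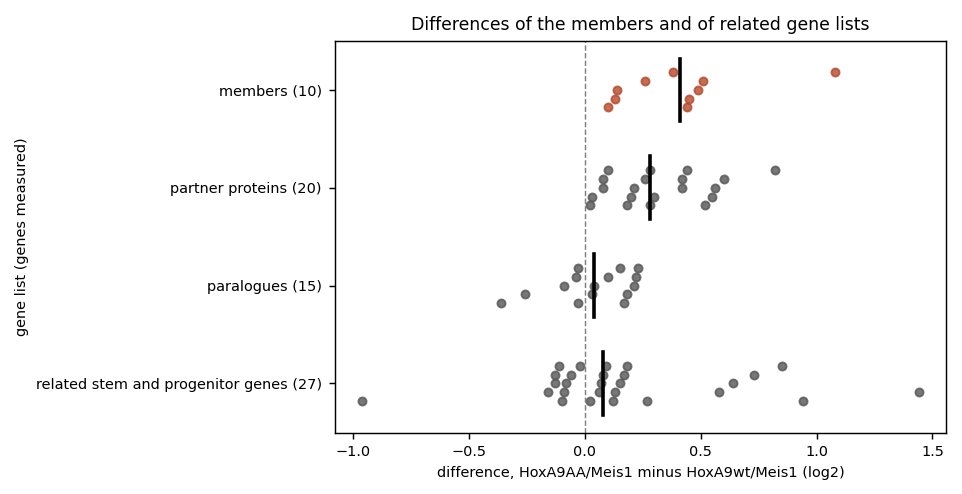
Difference of each gene (horizontal axis, HoxA9AA/Meis1 minus HoxA9wt/Meis1, log2) in the 10 members and in 3 lists of related genes (vertical axis); points are genes and bars medians. The medians are 0.41 for the members, 0.28 for partner proteins, 0.04 for paralogues and 0.08 for further stem and progenitor genes, and no gene shown passed the test.

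For the 3 members with the widest range, the genes with the most similar values were looked up by the root mean square difference over the 6 arrays after centring each gene. Nearest to Cd34 was Cp (ceruloplasmin), at a distance of 0.226, with 9.76, 8.41 and 9.53 in HoxA9AA/Meis1 marrow, against 9.16, 6.84 and 7.95 in HoxA9wt/Meis1 marrow. Muc13 and Entpd4 followed at 0.482 and 0.547. Nearest to Msi2 were Kcnn4, a calcium-activated potassium channel gene, at 0.187, Abcb1a, a drug efflux transporter gene, at 0.189, and Chst15 at 0.195. Kcnn4 measured 7.36, 7.09 and 8.93 in the HoxA9AA/Meis1 mice, against 7.97, 7.32 and 7.35 in the HoxA9wt/Meis1 mice, so that HoxA9AA/Meis1 replicate 3 and HoxA9wt/Meis1 replicate 1 were again the highest mice. Nearest to Mllt3 were Arhgap21, Fhl3 and Rida, at 0.127, 0.140 and 0.142. None of these 9 genes passed the test (limma, adjusted p between 0.731 and 0.965).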

How the data were processed

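The authors deposited 1 column of log2 values per mouse. These came from oligo and RMA (background correction, quantile normalization and probe set summary), per the submitters' processing notes, with versions not given in the sources used here; that they are log2 was read from RMA and from their range. Probe sets were named by the platform's annotation: of 35556 probe sets 21789 had 1 symbol, 1621 had several and 12146 were unnamed here. The brightest probe set per gene, by the mean of 6 arrays, left 19938 genes. All 10 members matched a RefSeq gene by Entrez identifier.

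The comparison used R 4.3.3 and limma 3.58.1 (two-sided, lmFit and eBayes with no block, threshold 0.05), with tables made in Python 3.11.15 and figures in matplotlib 3.10.9. The fit was tested on simulated data. The members, the lists of partners, paralogues, related genes and markers, and the tests were chosen with earlier results of these data known. All members were named, and of each related list the 4 genes with the smallest p. Members had per-array values, intervals and the medians of 40 neighbouring genes (21 for Cd34) of at least median brightness (6.81). Nothing in the sources says whether mice share a donor pool. The p-values set each group difference against the spread between these mice, moderated over all genes by limma. Alternatives were the replicate block, leaving out each array, dropping dim genes, averaging probe sets, quantile normalization, median centring, trend and robust eBayes, array weights, and no moderation.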

Additional observations from a re-analysis of the deposited data

How the results depend on the processing

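With every alternative that kept all 6 arrays, the count of genes called over all genes and the count of members called were both 0. Leaving out 1 array gave 0 to 48 genes called over all genes (48 without HoxA9AA/Meis1 replicate 2, 1 without HoxA9wt/Meis1 replicate 3) and 0 members called. Of 138 member values under the alternatives, 135 kept their direction and stayed short of the threshold, and 3 turned their sign: when 1 array was left out, Mecom ran from -0.03 to 0.22, Msi2 from -0.30 to 0.77 and Lmo2 from -0.07 to 0.23. Over the same settings Cd34 ran from 0.31 to 1.70, Sox4 from 0.31 to 0.90 and Myb from 0.31 to 0.69. All members tested had a higher mean except 1 without HoxA9AA/Meis1 replicate 1 and 2 without replicate 3. Dropping dim genes left 8 members, without Mecom and Sox4. With quantile normalization the members' median was 0.40 and with median centring 0.43, beside all-gene medians of 0.05 and 0.04. The deviations of same-numbered mice correlated at -0.21, -0.10 and -0.01. With 3 mice per group these values cannot settle whether the numbers pair the mice. With the replicate number as a block 0 members and 0 genes were called. In that fit 2 members, Cd34 and Myb, had an unadjusted p under 0.05 (limma, 0.0163 and 0.0407). The SE of Cd34 was 0.30 with the block, against 0.72 without it. Partner genes with a higher mean numbered 19 or 20 in all settings that kept all 20. Dim values limit Mecom, Sox4 and Hlf, which lie at or near background on most arrays.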
